A study of Mus musculus with 48 samples.

Results

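Cd74, Ciita and Ctss are 3 genes of the MHC class II antigen presentation pathway, and they were described here across 4 cell populations that had been sorted from tumours by the surface proteins Ly6C and MHC class II. The genes were taken by symbol as 3 of 24537 gene rows of a table of 3′ tag counts, to read at the transcript level a gate that was set on a surface protein. All 3 rows held counts, and all 3 passed the filter on low counts when the 8 groups were fitted together, as did 6032 rows in all.

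MHC class II molecules hold peptides from the endosomes on the cell surface, where CD4+ T cells read them. The invariant chain, encoded by Cd74, binds newly made class II chains, keeps their groove closed and leads them to the endosomes. Cathepsin S, encoded by Ctss, is the protease that makes the late cuts in the invariant chain in dendritic cells and other bone-marrow-derived cells, leaving a short piece that is then exchanged for a peptide. Ciita encodes the class II transactivator, which does not bind DNA itself but joins the factors that sit on the promoters of the class II genes and of Cd74. It is made in antigen-presenting cells and is induced in other cells by interferon gamma. In the gut wall, monocytes that arrive from the blood carry Ly6C, and they lose it and gain MHC class II as they turn into macrophages.

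The study compared Ccl17 ko mice with ctrl mice, and Ccl17 encodes a chemokine that dendritic cells release. Mice of both genotypes had received azoxymethane and dextran sulfate sodium (AOM DSS), a carcinogen and a colitis-causing agent, and the samples are labelled day 85, so no untreated tissue is among the 8 groups. Each population, Ly6Clo MHCIIhi, Ly6Clo MHCIIlo, Ly6Chi MHCIIhi and Ly6Chi MHCIIlo, was sorted from Ccl17 ko and from ctrl mice, with 8 replicates per genotype in Ly6Clo MHCIIhi and 4 per genotype in each of the others. The series text speaks of ko mice kept with control mice or apart from them, which is not given per sample, and the labels name neither strain nor age nor the deleted part of Ccl17. One library, Ly6Chi MHCIIhi ctrl replicate 2, held 8409 counts and was left out, so that group had n = 3 and 39 replicates were used. No label says that replicates are separate animals, so every p-value measures the spread between these samples.

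A RefSeq promoter sequence was matched for 1 of the 3 genes, Ctss, and it is shown because it is the sequence in which the elements known to drive Ctss in myeloid cells can be looked for. The 250 bases before the Ctss start site (GRCm38.p6, chr3:95526536-95526785, plus strand) are given 5′ to 3′ with the motif matches in capitals.
Ctss promoter: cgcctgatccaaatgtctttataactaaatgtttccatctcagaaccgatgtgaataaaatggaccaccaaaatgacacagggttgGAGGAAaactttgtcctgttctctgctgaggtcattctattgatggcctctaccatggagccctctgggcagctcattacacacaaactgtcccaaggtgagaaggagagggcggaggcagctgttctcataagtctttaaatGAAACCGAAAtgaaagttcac
The first match, GAGGAA, is the core letters bound by PU.1, a transcription factor of myeloid cells, and it lies at bases -164 to -159 from the start site. The second, GAAACCGAAA, is a match to GAAA, 2 bases of any kind and GAAA, the core of the element that interferon regulatory factors bind, and lies at bases -21 to -12. The letters ATTGG, the core of the Y box of class II promoters, are not in this window on either strand. Among 32851 promoter windows of the same length, 23.3% held GAGGAA, 2.98% held the interferon element core and 33.8% held ATTGG, each counted on both strands, and none of these matches overlapped in the Ctss window.

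GENCODE places Cd74 on chromosome 18, from 60803848 to 60812652 on the plus strand of GRCm38, Ciita on chromosome 16, from 10480059 to 10528418 on the plus strand, and Ctss on chromosome 3, from 95526786 to 95556403 on the plus strand. Ciita is transcribed from several promoters that different cell types use, and its 6 annotated protein-coding transcripts have 6 different starts spread over 9724 bases. A 3′ tag count does not tell these starts apart. The antisense gene Dexi shares 329 exon bases with Ciita but none of the last Ciita exon (10525764 to 10528418), and it held 148 counts over all libraries against 1458 for Ciita. The sources used here do not say whether strand was used in counting.

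Library totals ran from 8409 to 500683 counts. The labels could be read in part from other genes. Ly6c2, which encodes the Ly6C protein of monocytes, averaged 25.7 ± 19.5 CPM in Ly6Clo MHCIIhi (SD, n = 16) and 525 ± 199 CPM in Ly6Chi MHCIIhi (SD, n = 7), and 43.5 ± 15.8 CPM in Ly6Clo MHCIIlo and 1191 ± 259 CPM in Ly6Chi MHCIIlo (SD, n = 8 each). CPM were computed on library totals scaled by TMM over all 39 replicates. All 12 listed macrophage genes and all 8 listed monocyte genes had counts in each population. Ccl17, the targeted gene, lay between 0 and 6.72 CPM in ko and between 0 and 775 CPM in ctrl replicates of Ly6Clo MHCIIhi, where 5 of 8 ctrl replicates lay above every ko replicate, and it held at most 14 counts per group in the other populations, so genotypes are given as labelled. The class II chain genes and the genes of the peptide exchange factors are not analysed here.

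One replicate stood apart, Ly6Chi MHCIIhi ctrl replicate 1. Its erythroid genes, the globins among them, summed to 300198 CPM, against 29.1 to 12405 CPM in the other 38 replicates, and its neutrophil genes to 61242 CPM, against 877 to 2357 CPM in the other 6 replicates of its population. It also held the B cell genes Cd79a and Ms4a1 at 83.3 and 167 CPM, where the highest of the other replicates of that population held 0 and 14.3 CPM. Fold changes of single genes that rest on this replicate are given with and without it.

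Cd74 separated the MHC class II gates in every replicate. In Ly6Clo MHCIIhi it lay between 12131 and 14707 CPM in ko replicates (median 13834, n = 8) and between 11485 and 15298 CPM in ctrl replicates (median 13137, n = 8). In Ly6Clo MHCIIlo, ko replicates held 2871, 3373, 2144 and 1936 CPM and ctrl replicates 2911, 3109, 2110 and 2331 CPM. The lowest MHCIIhi replicate thus stood well above the highest MHCIIlo replicate, and the genotypes lay within each other's range.

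The same split was seen in the Ly6Chi cells. In Ly6Chi MHCIIhi, Cd74 stood at 10966, 11490, 14360 and 10262 CPM in ko replicates and at 3630, 6611 and 10594 CPM in ctrl replicates, of which the lowest is the replicate that stood apart. In Ly6Chi MHCIIlo, ko replicates held 2091, 2303, 2392 and 1151 CPM and ctrl replicates 1597, 2229, 1166 and 1613 CPM. All 7 MHCIIhi replicates lay above all 8 MHCIIlo replicates. The share of all genes with ranges this separate was not counted, in this or any other pair of populations.

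**Figure D1:**
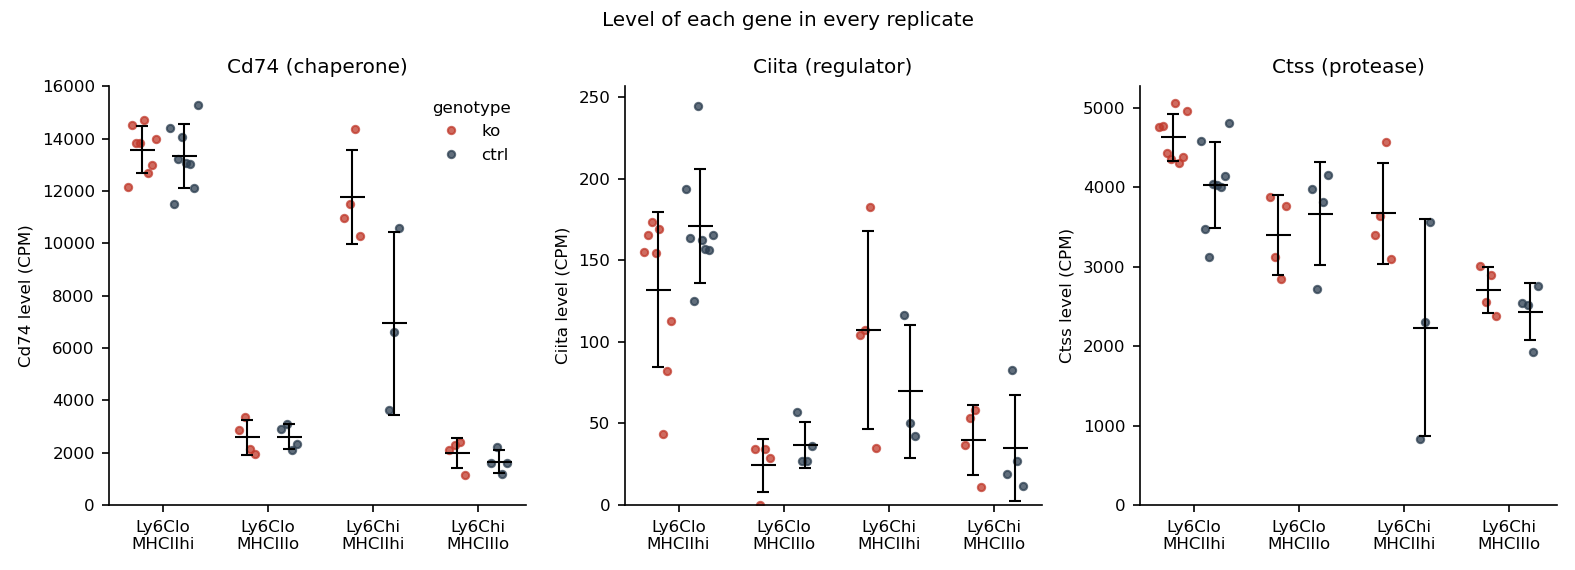
Level of Cd74, Ciita and Ctss in CPM (y axes, starting at 0) in every replicate of the 4 sorted populations (x axis), with ko in red left of ctrl in dark blue; horizontal marks and bars are the mean and SD. Cd74 is at 3630 CPM or more in every MHCIIhi replicate and at 3373 CPM or less in every MHCIIlo replicate, while the Ctss ranges overlap between the gates.

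Cd74 was 2.38 higher on the log2 scale in Ly6Clo MHCIIhi than in Ly6Clo MHCIIlo (SE 0.086, adjusted p = 1.06e-17), with the smallest p of the 4817 genes tested. In Ly6Chi MHCIIhi it was 2.37 higher than in Ly6Chi MHCIIlo (SE 0.22, adjusted p = 4.43e-06), again with the smallest p, of 4756 genes. These p-values and all others of single genes come, unless another test is named, from edgeR's quasi-likelihood test, adjusted after Benjamini and Hochberg for all genes in that comparison. A gene is said to be called where its adjusted p is under 0.05. The class II chain genes and those of the peptide exchange factors are not among the genes tested, so these ranks do not cover them. Of all genes tested, 25.5% were called between the Ly6Clo gates (12.5% higher and 13% lower in MHCIIhi) and 2.99% between the Ly6Chi gates (1.32% higher and 1.66% lower). Without the replicate that stood apart, the Cd74 difference between the Ly6Chi gates was 2.52 (adjusted p = 2.06e-09). With ctrl replicates alone it was 2.17 and was not called (adjusted p = 0.17), a fit of 3 against 4 replicates in which 0 genes were called. In sorted bulk samples, fewer cells that make a transcript and less transcript per cell cannot be told apart.

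The Cd74 fold between the gates was of like size on both sides of the Ly6C gate. The difference of the 2 folds, Ly6Clo minus Ly6Chi, was -0.02 on the log2 scale, with a 95% interval from -0.46 to 0.42 (adjusted p = 0.99), where 4.13% of 6032 genes were called (1.86% positive and 2.27% negative). It was -0.13 (adjusted p = 0.807) without the replicate that stood apart. Cd74 also differed along the Ly6C gate, by a smaller amount. It was 0.51 higher in Ly6Clo MHCIIhi than in Ly6Chi MHCIIhi (SE 0.14, adjusted p = 0.0153), with 15.7% of all genes called (8.32% higher and 7.42% lower), and 0.56 higher in Ly6Clo MHCIIlo than in Ly6Chi MHCIIlo (SE 0.16, adjusted p = 0.00808), with 37.2% of all genes called (18.3% higher and 18.9% lower).

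The order of the Cd74 levels was therefore Ly6Clo MHCIIhi with 13457 ± 1051 CPM (SD, n = 16), Ly6Chi MHCIIhi with 9702 ± 3512 CPM (SD, n = 7), Ly6Clo MHCIIlo with 2598 ± 533 CPM and Ly6Chi MHCIIlo with 1818 ± 503 CPM (SD, n = 8 each). Without the replicate that stood apart, Ly6Chi MHCIIhi averaged 10714 ± 2490 CPM (SD, n = 6), and the difference from Ly6Clo MHCIIhi was 0.35 (adjusted p = 0.0158). Neighbours at the same MHC class II level overlapped: 4 of 16 Ly6Clo MHCIIhi replicates lay above every Ly6Chi MHCIIhi replicate, and 4 of 8 Ly6Clo MHCIIlo replicates above every Ly6Chi MHCIIlo replicate. The call between the MHCIIhi populations was lost without Ly6Chi MHCIIhi ctrl replicate 3, a library of 34362 counts (0.44, adjusted p = 0.063). It was also lost with replicate number as a block in the fit (0.58, adjusted p = 0.145). Across the middle of the order, Cd74 was 1.86 lower in Ly6Clo MHCIIlo than in Ly6Chi MHCIIhi (SE 0.21, adjusted p = 4.52e-06), with no overlap and 23.3% of all genes called (11.3% higher and 12% lower), and 2.02 lower (-2.02) without the replicate that stood apart.

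Ciita was counted sparsely, and it was highest in the Ly6Clo MHCIIhi cells. There ko replicates lay between 43.5 and 174 CPM (median 155, n = 8) and ctrl replicates between 125 and 245 CPM (median 163, n = 8), which rests on 578 and 640 counts. In Ly6Clo MHCIIlo, ko replicates held 34.0, 0, 34.2 and 28.9 CPM and ctrl replicates 57.3, 27.3, 27.1 and 36.3 CPM, which rests on 19 and 30 counts. The value of 0, in ko replicate 2, allows up to 14.6 CPM at 3 counts, a limit that covers counting error only. Of 16 MHCIIhi replicates, 15 lay above every MHCIIlo replicate, and the exception was ko replicate 6, whose library of 39872 counts held 2 Ciita counts.

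In the Ly6Chi cells the Ciita ranges of the gates overlapped. Ly6Chi MHCIIhi ko replicates held 104, 107, 183 and 34.7 CPM and ctrl replicates 117, 50.1 and 42.3 CPM. Ly6Chi MHCIIlo ko replicates held 36.8, 53.6, 58.3 and 11.1 CPM and ctrl replicates 19.2, 82.9, 27.0 and 11.4 CPM. Of the 7 MHCIIhi replicates, 4 lay above every MHCIIlo replicate, and the highest ctrl value of 117 CPM was 7 counts in the replicate that stood apart.

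Ciita was 2.34 higher in Ly6Clo MHCIIhi than in Ly6Clo MHCIIlo (SE 0.26, adjusted p = 1.57e-08), a fold close to that of Cd74 in the same pair of populations. Between the Ly6Chi gates the Ciita difference was 1.24 (SE 0.42, 95% interval 0.36 to 2.11, adjusted p = 0.131) and was not called, nor was it without the replicate that stood apart (1.13, adjusted p = 0.146). It was called without Ly6Chi MHCIIlo ctrl replicate 2 (1.49, adjusted p = 0.0424) and with no filter on low counts (1.15, adjusted p = 0.011). A fit with replicate number as a block also called it (1.57, adjusted p = 0.00259). The difference of the 2 folds, Ly6Clo minus Ly6Chi, was 1.00 (95% interval 0.00479 to 1.99, adjusted p = 0.28), and 1.05 (adjusted p = 0.272) without the replicate that stood apart, so unequal folds were not called.

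Along the Ly6C gate Ciita differed at the high MHC class II level, where it was 0.75 higher in Ly6Clo MHCIIhi than in Ly6Chi MHCIIhi (SE 0.25, adjusted p = 0.038). At the low level the difference between Ly6Clo MHCIIlo and Ly6Chi MHCIIlo was -0.21 (SE 0.43, 95% interval -1.10 to 0.69, adjusted p = 0.738). The first of these calls was lost when any of 8 replicates was left out, at adjusted p between 0.0515 and 0.17, and those were Ly6Chi MHCIIhi ctrl replicates 3 and 4 and ko replicate 4, and Ly6Clo MHCIIhi ko replicates 1 to 5. It held without the replicate that stood apart (0.79, adjusted p = 0.0361). By mean level Ciita stood at 152 ± 45.2 CPM in Ly6Clo MHCIIhi (SD, n = 16), 91.2 ± 52.8 CPM in Ly6Chi MHCIIhi (SD, n = 7), 37.5 ± 25.6 CPM in Ly6Chi MHCIIlo and 30.6 ± 15.7 CPM in Ly6Clo MHCIIlo (SD, n = 8 each). Ly6Chi MHCIIhi averaged 86.9 ± 56.6 CPM (SD, n = 6) without the replicate that stood apart, which leaves this order as it was. Ciita was 1.53 lower in Ly6Clo MHCIIlo than in Ly6Chi MHCIIhi (SE 0.43, adjusted p = 0.0118; -1.43 without the replicate that stood apart), and the 2 MHCIIlo populations, which are neighbours in this order, did not differ beyond their spread.

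Ctss was high in all 4 populations and differed far less between the gates than Cd74 did. In Ly6Clo MHCIIhi it lay between 4302 and 5065 CPM in ko replicates (median 4597, n = 8) and between 3127 and 4812 CPM in ctrl replicates (median 4040, n = 8). In Ly6Clo MHCIIlo, ko replicates held 3881, 3124, 2840 and 3764 CPM and ctrl replicates 3980, 2714, 3817 and 4158 CPM. The ranges overlapped, and 10 of 16 MHCIIhi replicates lay above every MHCIIlo replicate.

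In Ly6Chi MHCIIhi, Ctss stood at 3403, 3636, 4572 and 3096 CPM in ko replicates and at 833, 2304 and 3561 CPM in ctrl replicates, again with the lowest value in the replicate that stood apart. In Ly6Chi MHCIIlo, ko replicates held 3011, 2553, 2893 and 2374 CPM and ctrl replicates 2540, 2519, 1930 and 2755 CPM. Of 7 MHCIIhi replicates, 5 lay above every MHCIIlo replicate and 1, the one that stood apart, below all of them.

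Ctss was 0.29 higher in Ly6Clo MHCIIhi than in Ly6Clo MHCIIlo (SE 0.085, adjusted p = 0.0116). The call was lost when all 8 groups were fitted together (adjusted p = 0.119) and with ctrl replicates alone (0.14, adjusted p = 0.547). It was also lost with replicate number as a block in the fit (0.25, adjusted p = 0.134). Between the Ly6Chi gates the Ctss difference was 0.21 (SE 0.22, 95% interval -0.24 to 0.67, adjusted p = 0.71) with all replicates, 0.40 (adjusted p = 0.0842) without the replicate that stood apart, and 0.48 (adjusted p = 0.0349) without the replicates under 100000 counts, a setting added after the data were seen. The difference of the 2 folds was 0.06 (95% interval -0.37 to 0.49, adjusted p = 0.94) with that replicate and -0.07 (adjusted p = 0.89) without it.

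Ctss differed along the Ly6C gate at both MHC class II levels. It was 0.54 higher in Ly6Clo MHCIIhi than in Ly6Chi MHCIIhi (SE 0.16, adjusted p = 0.0213) and 0.49 higher in Ly6Clo MHCIIlo than in Ly6Chi MHCIIlo (SE 0.12, adjusted p = 0.00168). The first was 0.37 (adjusted p = 0.0111) without the replicate that stood apart, and was not called without Ly6Chi MHCIIhi ctrl replicate 3 (0.51, adjusted p = 0.0593). Nor was it called with replicate number as a block in the fit (0.57, adjusted p = 0.19). The mean levels were 4329 ± 524 CPM in Ly6Clo MHCIIhi (SD, n = 16), 3535 ± 556 CPM in Ly6Clo MHCIIlo (SD, n = 8), 3058 ± 1192 CPM in Ly6Chi MHCIIhi (SD, n = 7) and 2572 ± 335 CPM in Ly6Chi MHCIIlo (SD, n = 8). Without the replicate that stood apart, Ly6Chi MHCIIhi averaged 3429 ± 741 CPM (SD, n = 6). The middle pair did not differ beyond its spread: Ctss in Ly6Clo MHCIIlo against Ly6Chi MHCIIhi differed by 0.23 (SE 0.23, adjusted p = 0.498), and by 0.04 (adjusted p = 0.863) without the replicate that stood apart.

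Ly6Clo MHCIIhi and Ly6Chi MHCIIlo, the highest and the lowest population for Cd74 and Ctss, differed for all 3 genes, where 42.6% of all genes were called (20.9% higher and 21.7% lower). Cd74 was 2.88 higher (SE 0.10, adjusted p = 4.72e-18), Ciita 2.08 higher (SE 0.26, adjusted p = 4.65e-08) and Ctss 0.74 higher (SE 0.079, adjusted p = 1.19e-08) in Ly6Clo MHCIIhi. The Cd74 and Ctss ranges of these populations did not overlap, and for Ciita 14 of 16 Ly6Clo MHCIIhi replicates lay above every Ly6Chi MHCIIlo replicate. How many of all genes had separate ranges in this pair was not counted, so separate ranges are not read as particular to Cd74 and Ctss.

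**Figure D2:**
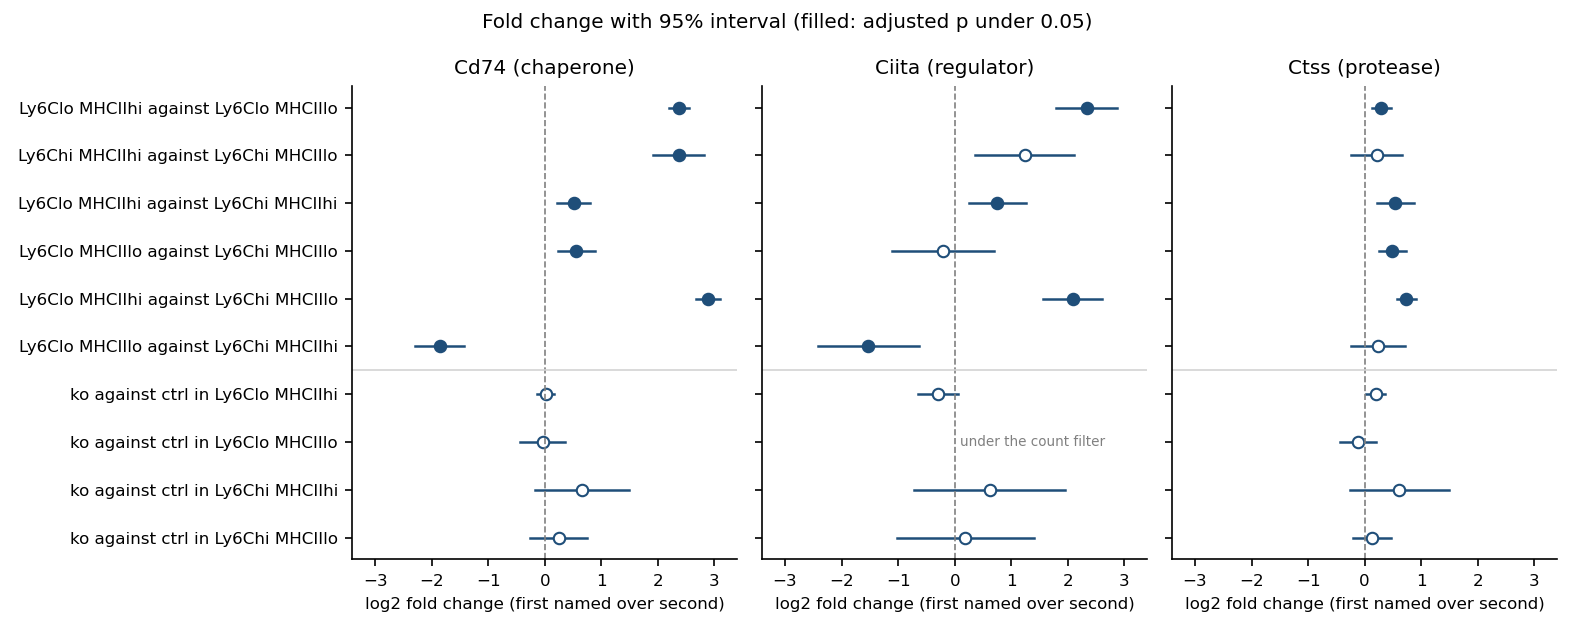
Log2 fold change (x axis, first named group over the second) of Cd74, Ciita and Ctss in the 6 pairs of populations and, under the grey line, in ko against ctrl within each population; bars are 95% intervals and filled points have an adjusted p under 0.05. Cd74 is filled in all 6 pairs, and no gene is filled in a comparison of ko with ctrl.

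The balance of the chaperone and the protease within a library needs no scaling between libraries, so the log2 ratio of Cd74 to Ctss counts was compared as well. Only its change between populations is read, since tags of different genes are not counted with equal efficiency. The ratio averaged 1.64 ± 0.16 in Ly6Clo MHCIIhi (SD, n = 16) and -0.45 ± 0.43 in Ly6Clo MHCIIlo (SD, n = 8), a difference of 2.10 (two-sided exact permutation p adjusted over 6 pairs = 4.08e-06). It averaged 1.70 ± 0.19 in Ly6Chi MHCIIhi (SD, n = 7) and -0.54 ± 0.32 in Ly6Chi MHCIIlo (SD, n = 8), a difference of 2.25 (two-sided exact permutation, adjusted p = 0.000233). The gates did not overlap in either case, and the replicate that stood apart had a ratio of 2.11, the highest of all replicates. Without it the difference between the Ly6Chi gates was 2.18 (exact permutation, adjusted p = 0.0005).

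Along the Ly6C gate the ratio differed little. Ly6Clo MHCIIhi minus Ly6Chi MHCIIhi was -0.06 (two-sided exact permutation, adjusted p = 0.532), and 0.00648 (adjusted p = 0.923) without the replicate that stood apart. Ly6Clo MHCIIlo minus Ly6Chi MHCIIlo was 0.09 (two-sided exact permutation, adjusted p = 0.645), with overlapping ranges. With ko replicates alone, the MHCIIhi populations differed by -0.13 (exact permutation, adjusted p = 0.0343).

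**Figure D3:**
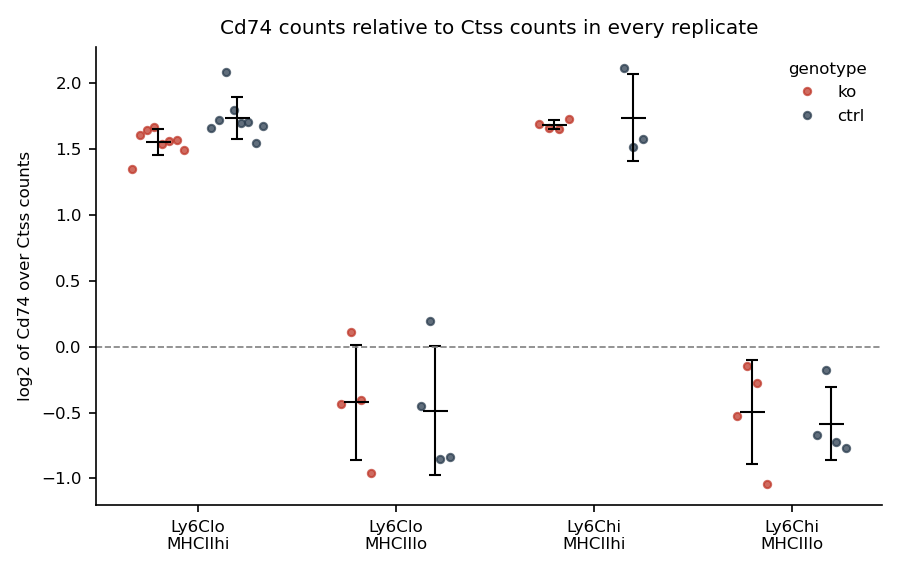
Log2 ratio of Cd74 counts to Ctss counts, each plus 0.5 (y axis), in every replicate of the 4 populations (x axis), with ko in red left of ctrl in dark blue; horizontal marks and bars are the mean and SD, and the dashed line marks equal counts. MHCIIhi replicates lie between 1.35 and 2.11, and MHCIIlo replicates between -1.04 and 0.20.

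None of the 3 genes was called between ko and ctrl in any population. In Ly6Clo MHCIIhi, the population with the most replicates, Cd74 differed by 0.02 (95% interval -0.14 to 0.17, adjusted p = 1.00), Ciita by -0.30 (95% interval -0.65 to 0.05, adjusted p = 0.952) and Ctss by 0.19 (95% interval 0.02 to 0.37, unadjusted p = 0.0325, adjusted p = 0.923). There 0 of 5660 genes were called (0%) by edgeR, with 295 at an unadjusted p under 0.05. In Ly6Chi MHCIIlo the differences were 0.24 for Cd74 (95% interval -0.26 to 0.75), 0.19 for Ciita (95% interval -1.02 to 1.39) and 0.13 for Ctss (95% interval -0.21 to 0.46), at adjusted p of 0.725 to 0.919, where 3 of 3966 genes (0.0756%) were called.

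In Ly6Clo MHCIIlo, Cd74 differed by -0.03 (95% interval -0.43 to 0.37) and Ctss by -0.12 (95% interval -0.44 to 0.21), each at an adjusted p of 0.999, where 1 of 3182 genes (0.0314%) was called. Ciita was under the count filter there, and its mean log2(CPM + 1) differed by -1.39 (two-sided exact permutation p = 0.4, n = 4 each). In Ly6Chi MHCIIhi the differences were 0.65 for Cd74 (95% interval -0.18 to 1.49), 0.62 for Ciita (95% interval -0.72 to 1.95) and 0.62 for Ctss (95% interval -0.26 to 1.49), at adjusted p of 0.718 to 0.859, where 0 of 3509 genes (0%) were called and 244 had an unadjusted p under 0.05. Without the replicate that stood apart, which is 1 of the 3 ctrl replicates, Cd74 differed by 0.39, Ciita by 1.16 and Ctss by 0.25. None of these was called (adjusted p of 0.934 to 0.971), in a fit with 2 ctrl replicates. With DESeq2 in place of edgeR, 11 genes were called in Ly6Chi MHCIIlo, 4 in Ly6Chi MHCIIhi, 2 in Ly6Clo MHCIIlo and 0 in Ly6Clo MHCIIhi, and Cd74, Ciita and Ctss were not among them.

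Nor did the genotype difference vary between populations beyond the spread. The test of population by genotype gave adjusted p of 0.771 for Cd74, 0.928 for Ciita and 0.845 for Ctss, with 0.0663% of 6032 genes called, and 0.996 for each of them without the replicate that stood apart. Without Ly6Chi MHCIIhi ctrl replicate 4, the ctrl replicate of that population with the most counts (243339), the interaction was called for Cd74 (adjusted p = 0.0343) and Ctss (adjusted p = 0.0267), and 91 genes were called in all. Sample barcodes were classed as rich in G and C where 3 or more of their 6 bases were G or C, and as rich in A and T otherwise. Outside Ly6Clo MHCIIhi, all ko libraries carried barcodes of the first class and all ctrl libraries barcodes of the second, so genotype and barcode class cannot be told apart in those 3 populations. Both genotypes had both classes in Ly6Clo MHCIIhi, where Ctss averaged 4783 ± 347 CPM in 8 ko libraries and 4392 ± 378 CPM in 4 ctrl libraries with G and C rich barcodes, and 4638 ± 235 CPM in 4 ko libraries and 4121 ± 627 CPM in 8 ctrl libraries with A and T rich barcodes, on unscaled totals. The first of these SDs is over 8 libraries of 5 replicates, so repeat libraries of a replicate are counted in it separately.

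The precision of these levels was read from replicates with a second library. Over 8 such replicates, all of Ly6Clo MHCIIhi, the libraries of a replicate differed at most 1.14-fold for Cd74, 1.15-fold for Ctss and 1.73-fold for Ciita. The other populations had no second library, so these folds do not cover them. Counting error alone would give Ciita a coefficient of variation of 17.6% in Ly6Clo MHCIIhi and 40.9% in Ly6Clo MHCIIlo, against measured values of 29.8% and 51.3%. For Cd74 counting would give 1.87% and 4.44% in these populations, against measured values of 7.81% and 20.5%. The measured spread holds differences between libraries as well as between samples.

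Other genes of the pathway were read from a list of 55, of which 44 were in the table. The median log2 fold of those tested was 0.16 between the Ly6Clo gates and 0.03 between the Ly6Chi gates, beside -0.00098 and -0.01 over all genes, and 0.18 between the Ly6Chi gates without the replicate that stood apart. Between the Ly6Clo gates 10 of 34 tested rose in MHCIIhi, 4 fell and 20 were not called, where 12.5% of all genes rose and 13% fell. Between the Ly6Chi gates 3 of 35 rose, 1 fell and 31 were not called, where 1.32% of all genes rose and 1.66% fell. Without the replicate that stood apart, 4 of 36 rose and 1 fell, where 1.89% of all genes rose and 2.32% fell. In no comparison of ko with ctrl was a gene of the list called, where 0% to 0.0756% of all genes were called. This is therefore not read as particular to the list.

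Among partners of the Cd74 protein, Mif, a cytokine that binds it, moved in opposite directions. It was 1.14 higher in Ly6Chi MHCIIhi than in Ly6Chi MHCIIlo (adjusted p = 0.00169) and 0.34 lower in Ly6Clo MHCIIhi than in Ly6Clo MHCIIlo (-0.34, adjusted p = 0.00732), and the difference of these folds was -1.53 (adjusted p = 8.34e-06; -1.63 without the replicate that stood apart). Ddt, a relative of Mif that also binds CD74, rose in both, by 0.69 between the Ly6Clo gates (adjusted p = 0.0111) and 1.02 between the Ly6Chi gates (adjusted p = 0.04). Cd44, which pairs with CD74 in signalling, fell in both, by 0.65 between the Ly6Clo gates (adjusted p = 0.000238) and 0.93 between the Ly6Chi gates (adjusted p = 0.0322). Without the replicate that stood apart, the Ly6Chi folds of Mif, Ddt and Cd44 were 1.27, 1.11 and -0.74, each still called. Cxcr4, which also takes part in CD74 signalling, was not called in either.

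Of the factors that work with the class II transactivator, 3 were tested between the gates, Creb1, Nfyb and Rfxap, and none was called. Over all genes, 25.5% were called between the Ly6Clo gates and 2.99% between the Ly6Chi gates, and 3 genes are too few to set against these shares. Of 8 tested genes that act upstream of Ciita, Ifngr1, a chain of the interferon gamma receptor, was 0.54 higher in Ly6Clo MHCIIhi than in Ly6Clo MHCIIlo (adjusted p = 0.00739). That is 1 gene of 8, where 12.5% of all genes rose. The other 7 were not called there, and none of the 8 was called between the Ly6Chi gates. The Ifngr1 folds differed by 0.90 between the Ly6Clo and the Ly6Chi gates (adjusted p = 0.0157), and by 0.87 (adjusted p = 0.0209) without the replicate that stood apart.

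The proteases beside Ctss did not move as a group between the Ly6Clo gates. Ctsh, an aminopeptidase, was 0.55 higher in Ly6Clo MHCIIhi (adjusted p = 6.40e-05), while Ctsd, the main aspartic protease of lysosomes, was 0.98 lower (-0.98, adjusted p = 1.12e-06) and Ctsl, which can also cut the invariant chain in some cell types, 0.38 lower (-0.38, adjusted p = 0.00875) than in Ly6Clo MHCIIlo, and 5 of 8 tested were not called. Over all genes, 12.5% rose and 13% fell between the Ly6Clo gates. Between the Ly6Chi gates Lgmn, which encodes an endosomal protease that cuts after asparagine, was 0.78 higher in MHCIIhi (adjusted p = 0.0337). There 7 of 8 were not called, where 1.32% of all genes rose and 1.66% fell. With the replicate that stood apart left out, Lgmn was 0.91 higher and Ctsz was called as well (0.42, adjusted p = 0.0343). In that fit 6 of 8 were not called, where 1.89% of all genes rose and 2.32% fell. Along the Ly6C gate 7 of them, Ctsl, Ctsb, Ctsd, Ctsh, Ctsz, Ctsc and Lgmn, were called higher at both MHC class II levels, by 0.66 to 1.10 in Ly6Clo MHCIIhi against Ly6Chi MHCIIhi and by 0.38 to 2.10 in Ly6Clo MHCIIlo against Ly6Chi MHCIIlo, beside 0.54 and 0.49 for Ctss. The first range was 0.53 to 1.07 without the replicate that stood apart, with all 7 called. Of all genes, 8.32% rose in the first of these comparisons and 18.3% in the second. Cst3, which encodes the secreted cathepsin inhibitor cystatin C, was 0.94 higher in Ly6Clo MHCIIhi than in Ly6Clo MHCIIlo (adjusted p = 1.04e-08).

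Of 5 tested genes that act on class II turnover and presentation, 3 rose between the Ly6Clo gates, where 12.5% of all genes rose. Cd83, whose protein holds class II on the surface of dendritic cells, was 1.75 higher in MHCIIhi (SE 0.14, adjusted p = 4.65e-10), and Tmem176a and Tmem176b, which encode membrane channels of class II compartments, were 1.70 and 1.31 higher (adjusted p = 6.36e-07 and 6.91e-07). March1, which encodes a ligase that marks class II for degradation, and Wdfy4, which acts in cross-presentation, were not called in either gate comparison. Of 4 costimulation genes tested, Cd40, Cd86 and Icam1 rose between the Ly6Clo gates by 1.04, 0.71 and 0.58 (adjusted p = 0.00435, 0.00647 and 0.001), and none of 5 was called between the Ly6Chi gates, where 12.5% of all genes rose between the Ly6Clo gates and 2.99% were called between the Ly6Chi gates. The folds of Cd83, Tmem176a, Tmem176b and Cst3 differed between the Ly6Clo and the Ly6Chi gates by 1.39, 1.21, 1.05 and 1.01 (adjusted p of 0.000174 to 0.0204), where Cd74 differed by -0.02. Leaving out the replicate that stood apart, these were 1.38, 1.16, 0.99 and 0.89, all called, and -0.13 for Cd74.

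**Figure D4:**
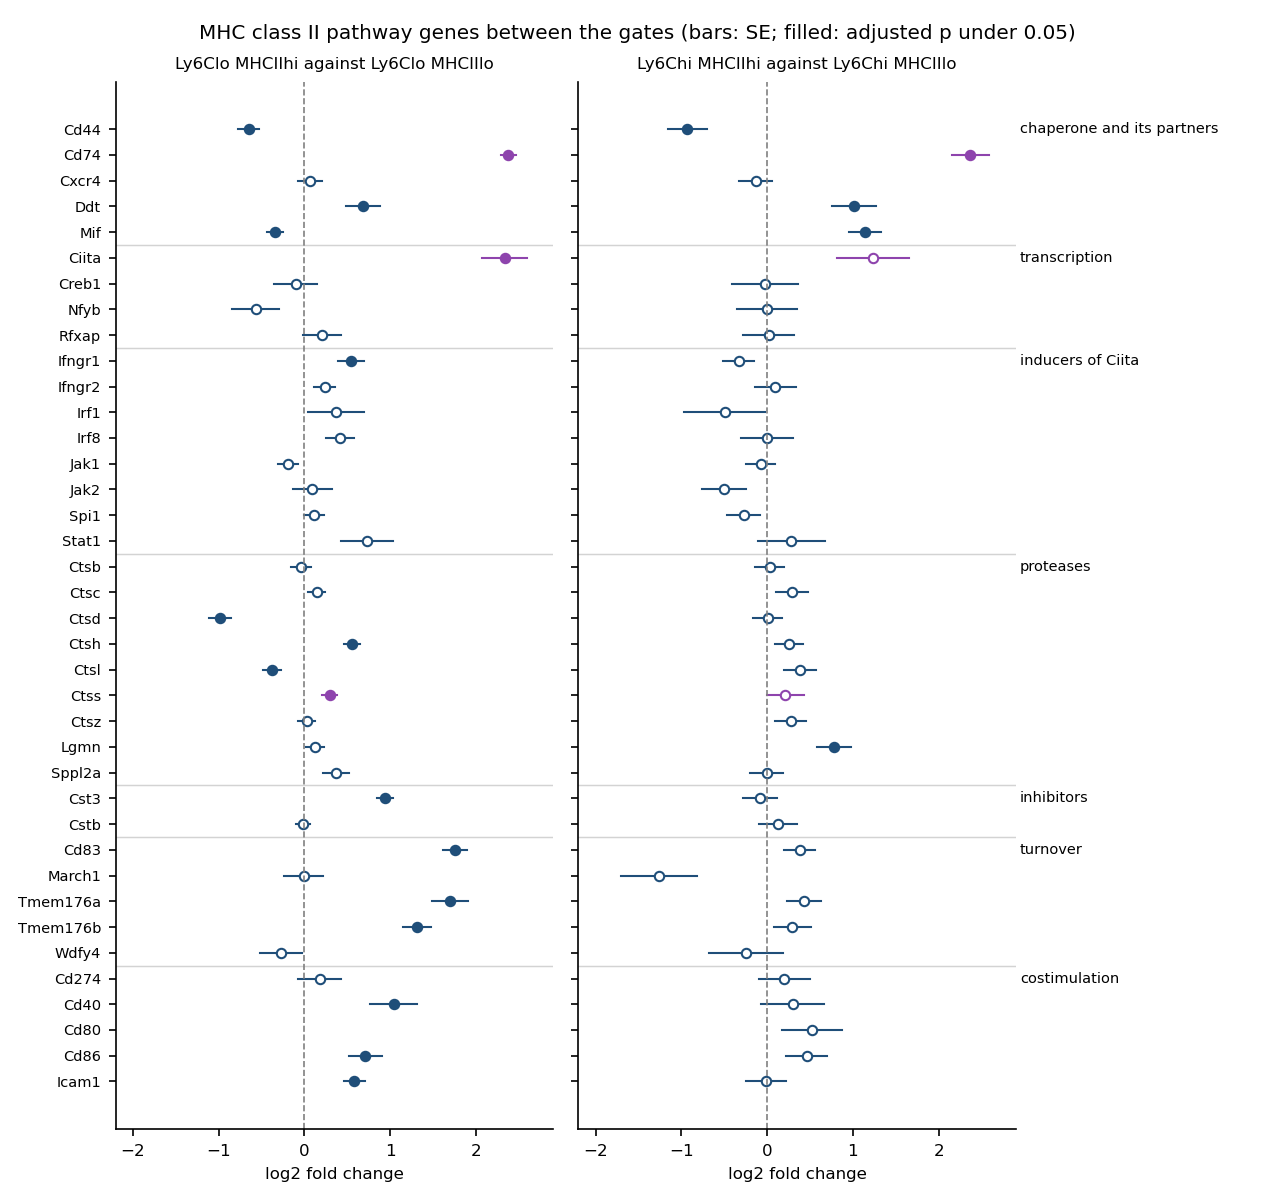
Log2 fold change (x axis) of Cd74, Ciita and Ctss (purple) and of the listed pathway genes that were tested (blue), by role, in MHCIIhi against MHCIIlo of Ly6Clo cells (left) and of Ly6Chi cells (right); bars are SE and filled points have an adjusted p under 0.05. Cd74 has the largest fold of the plotted genes in both panels, at 2.38 and 2.37.

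The gates also differed in markers of other cells. All 10 listed neutrophil genes had counts in each population, and their sum was 848 to 2203 CPM in Ly6Clo MHCIIhi and 6039 to 32724 CPM in Ly6Clo MHCIIlo, and 877 to 2357 CPM in Ly6Chi MHCIIhi without the replicate that stood apart and 6523 to 16519 CPM in Ly6Chi MHCIIlo. The 7 mature dendritic cell genes, all with counts in each population, summed to 308 to 951 CPM in Ly6Clo MHCIIhi and 171 to 234 CPM in Ly6Clo MHCIIlo, and to 219 to 351 CPM in Ly6Chi MHCIIhi and 135 to 230 CPM in Ly6Chi MHCIIlo. The conventional dendritic cell genes summed to 72.8 to 271 CPM in Ly6Clo MHCIIhi, with 9 of 9 having counts, and to 36.3 to 109 CPM in Ly6Clo MHCIIlo, where Xcr1 was at 0. They summed to 57.8 to 125 CPM in Ly6Chi MHCIIhi, where Itgae was at 0, and to 11.1 to 55.3 CPM in Ly6Chi MHCIIlo, where Xcr1, Clec9a and Itgae were at 0. The part of these cells in the levels of Cd74, Ciita and Ctss was not tested.

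B cells also make Cd74 and Ciita. The defining B cell genes Cd79a and Ms4a1 were at 0 in both MHCIIlo populations, and held 3 counts each over the 16 replicates of Ly6Clo MHCIIhi. In Ly6Chi MHCIIhi they held 5 and 14 counts, of which 5 and 10 lay in the replicate that stood apart. The summed list, which includes immunoglobulin genes, ran from 54.8 to 30215 CPM in Ly6Clo MHCIIhi (median 1667). In Ly6Clo MHCIIlo it ran from 62.4 to 4937 CPM (median 94.2). In the Ly6Chi cells the summed list ran from 77.0 to 14410 CPM in MHCIIhi (median 2847) and from 69.2 to 6361 CPM in MHCIIlo (median 412). Its medians were thus higher in MHCIIhi on both sides of the Ly6C gate, with overlapping ranges. The part of B cells in the levels of Cd74 and Ciita was not tested. Between the Ly6C gates the macrophage genes moved with Ctss and Cd74, summing to 21073 to 51551 CPM in Ly6Clo MHCIIhi and 7360 to 15337 CPM in Ly6Chi MHCIIhi. The latter was 9266 to 15337 CPM without the replicate that stood apart. They summed to 22666 to 41413 CPM in Ly6Clo MHCIIlo and 5426 to 9228 CPM in Ly6Chi MHCIIlo, and their part in these differences was not tested.

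**Figure D5:**
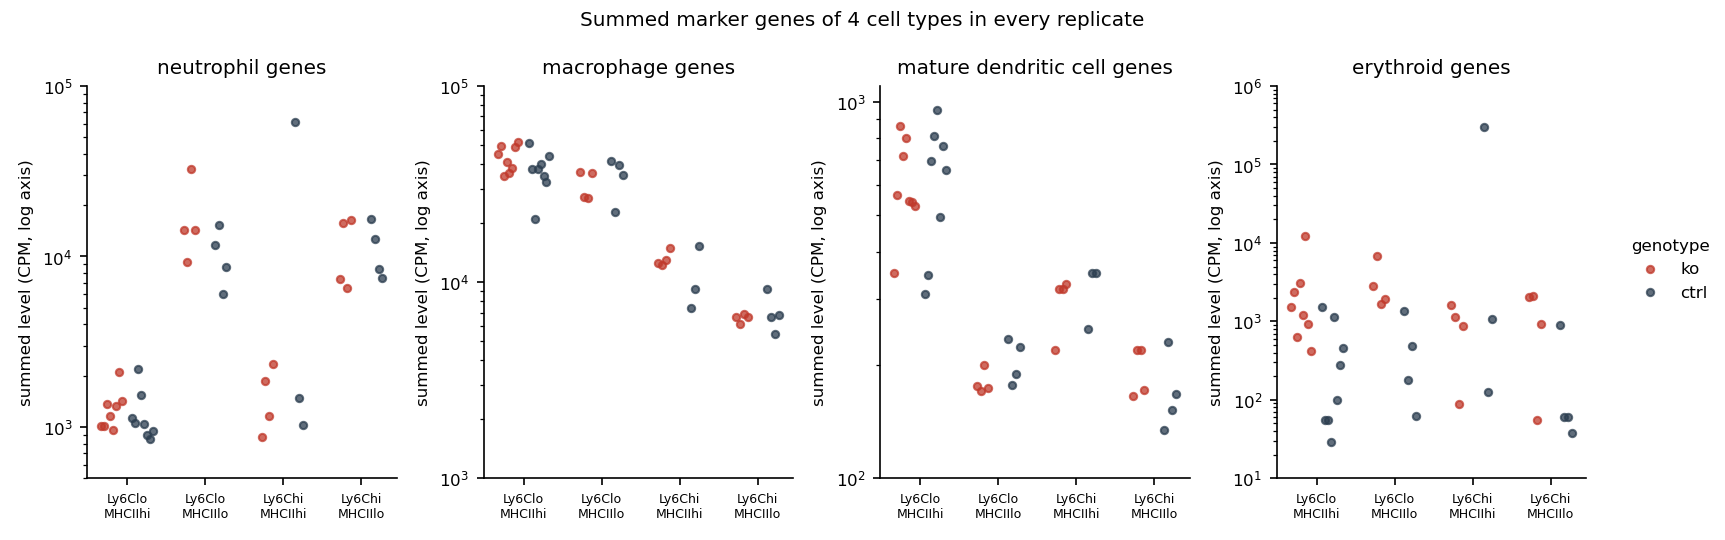
Summed level in CPM (y axes, log scale) of the listed neutrophil, macrophage, mature dendritic cell and erythroid genes in every replicate of the 4 populations (x axis), with ko in red left of ctrl in dark blue. The point at 300198 CPM in the erythroid panel and at 61242 CPM in the neutrophil panel is Ly6Chi MHCIIhi ctrl replicate 1.

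The genes whose levels over the 8 group means ran most like those of each member were taken by Pearson's r of mean log2(CPM + 1) among 5603 genes with at least 20 CPM in a group. For Cd74 these included Ramp3 (0.974), Ccl8 (0.966), Ndufv3 (0.939) and Pim3 (0.928). Ccl8, a chemokine of gut macrophages, ran from 20.6 CPM in Ly6Chi MHCIIlo ko to 794 CPM in Ly6Clo MHCIIhi ko. For Ciita they were Stx12 (0.940), Nop10 (0.938), Mir7688 (0.929), Pmaip1 (0.924) and Serpina3g (0.913), and for Ctss Ndufs7 (0.989), Nxpe5 (0.987), Cox5a (0.979), Rftn1 (0.977) and Hsdl1 (0.977). Between the members r was 0.894 for Cd74 and Ciita, 0.498 for Cd74 and Ctss and 0.393 for Ciita and Ctss, and Spearman's rho for the same pairs was 0.905, 0.762 and 0.667. These are descriptions over 8 points that share libraries and scaling, with Ly6Chi MHCIIhi ctrl resting on 3 replicates, the one that stood apart among them.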

How the data were processed

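Poly(A) RNA of cells sorted from tumours was sequenced at its 3′ ends, per the labels' protocols, and the authors deposited 1 table of whole-number counts per gene and library, with no normalization recorded. The build was GRCm38, with R 3.4.4 and DESeq2 1.18.1, per the submitters' processing notes. The sources used here do not name aligner, counting, annotation or handling of molecular identifiers. Floors cover counting error only. The intervals of fold changes come from the edgeR fits and also hold the spread between samples. Neither covers error from those unnamed steps. The row z (127 counts, 0.000967%), which names no gene, was removed. Counts of 2 libraries of a replicate were added, and libraries under 0.1 of the median total were left out.

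Counts were filtered with filterByExpr (minimum count 10, minimum total 15), scaled by TMM and tested with edgeR 4.0.16 in R 4.3.3 (limma 3.58.1), within the groups compared and with genotype in the model for pairs of populations. Ratios (pseudocount 0.5) and the member under the filter were tested by two-sided exact permutation. The members, lists and tests were chosen with earlier results of these data known. Named list genes are those called in a gate comparison, at most 4 per role by p, while Cxcr4, Creb1, Nfyb, Rfxap, March1, Wdfy4 and the proteases of the Ly6C comparisons were named after their values were seen, and the 5 most like genes per member exclude predicted genes; 1 of those of Cd74 is not reported here. Alternatives were DESeq2 1.42.0, its size factors, no filter, all libraries, library 1 only, unsummed libraries, 1 fit of all groups, barcode class, each genotype alone, a replicate block, other pseudocounts and each replicate left out. The fits were also run on simulated counts with the same dispersion for every gene, changes set only in genes of higher counts, and no outlying replicate. These runs therefore do not cover sparse counts or the replicate that stood apart.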

Additional observations from a re-analysis of the deposited data

Results flagged for a closer look

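The Ciita level of 0 CPM in Ly6Clo MHCIIlo ko replicate 2 lay far from the other 3 ko replicates of that population, which held 34.0, 34.2 and 28.9 CPM. Its distance from the nearest of them was 0.844 of the whole range of the group, beyond the 95% critical value of 0.829 for 4 samples. Those 3 values are 6, 6 and 7 counts, and the 0 allows up to 14.6 CPM. Of 21 groups of Cd74, Ciita and Ctss levels tested this way, this was 1, and chance gives about 1 in 20.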

How the results depend on the processing

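The gate differences in Cd74 (both Ly6C classes), in Ciita (Ly6Clo) and in the Cd74 to Ctss ratio (both) kept their direction under every alternative run and their call in all but 1, Cd74 between the Ly6Chi gates with ctrl samples only (2.17, adjusted p = 0.17). Over the member and ratio results, 355 of the values under other settings kept direction and side of the threshold, 17 lost a call, 4 gained one and 8 changed sign. With 1 replicate left out these were 770, 10, 3 and 36. None of the sign changes concerned a called difference, and the cause was not tested for any change beyond the fewer samples in a fit. All p below are edgeR's adjusted p unless exact permutation is named.

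Replicate numbers were not taken to pair samples, since no comparison had every correlation over 0.1 and in none did every sample correlate best with its own number. This rule cannot exclude pairing. In Ly6Clo MHCIIlo against Ly6Chi MHCIIhi, 5 of 7 samples correlated best with their own number (r from 0.0065 to 0.062). In Ly6Chi MHCIIhi against Ly6Chi MHCIIlo 4 of 7 did, and in Ly6Clo MHCIIhi against Ly6Clo MHCIIlo 1 of 8. With the replicate block, Ciita between the Ly6Chi gates was called (1.57, p = 0.00259), and Ctss between the Ly6Clo gates (0.25, p = 0.134), Cd74 (0.58, p = 0.145) and Ctss (0.57, p = 0.19) between the MHCIIhi populations were not. The block moved the count of called genes to 708 against 1228 between the Ly6Clo gates, 443 against 872 between the MHCIIhi populations, 145 against 249 for the gate difference and 4 against 1 for genotype in Ly6Clo MHCIIlo.

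With ctrl samples only, Ctss was 0.14 (p = 0.547) between the Ly6Clo gates and -0.035 between the Ly6Chi gates; the MHCIIhi populations gave 0.90 (p = 0.108) for Cd74, 1.43 (p = 0.059) for Ciita and 0.81 (p = 0.207) for Ctss; and Ly6Clo MHCIIlo against Ly6Chi MHCIIhi gave -1.47 (p = 0.0835) for Cd74 and -0.78 (p = 0.526) for Ciita. With ko samples only, the MHCIIhi populations gave 0.23 (p = 0.107) for Cd74, 0.49 (p = 0.318) for Ciita and -0.13 for the ratio (exact permutation, p = 0.0343), the MHCIIlo populations 0.45 (p = 0.154) for Cd74 and 0.40 (p = 0.0654) for Ctss, and Ly6Clo MHCIIlo against Ly6Chi MHCIIhi -0.048 for Ctss. Without replicates under 100000 counts, chosen after the data were seen, Ctss was 0.48 (p = 0.0349) between the Ly6Chi gates, -0.10 in Ly6Clo MHCIIlo against Ly6Chi MHCIIhi and -0.12 for the gate difference, Ciita 0.77 (p = 0.0554) between the MHCIIhi populations, and Cd74 -0.0023 for ko in Ly6Clo MHCIIhi. With library 1 only these last were 0.70 (p = 0.0639) and -0.0042. With no count filter Ciita was 1.15 (p = 0.011) between the Ly6Chi gates and the Cd74 gate difference 0.14, which was 0.11 with all libraries kept. With all groups in 1 fit Ctss was 0.29 (p = 0.119) between the Ly6Clo gates.

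With 1 replicate left out, the ratio ran from -0.093 to 0.0065 between the MHCIIhi and from -0.0049 to 0.16 between the MHCIIlo populations. Between the MHCIIhi populations Cd74 ran from 0.35 to 0.60, Ciita from 0.55 to 0.98 and Ctss from 0.37 to 0.67. Ciita ran from 1.01 to 1.49 between the Ly6Chi gates and from -0.43 to 0.053 between the MHCIIlo populations. The gate difference ran from -0.13 to 0.091 for Cd74 and from -0.069 to 0.19 for Ctss. For ko against ctrl, Ciita ran from -0.092 to 0.95 in Ly6Chi MHCIIlo and -0.020 to 1.16 in Ly6Chi MHCIIhi, and Cd74 from -0.19 to 0.087 in Ly6Clo MHCIIlo and -0.0092 to 0.042 in Ly6Clo MHCIIhi. The interaction F ran from 1.53 to 7.55 for Cd74 and 1.42 to 7.97 for Ctss.

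With 1 genotype only, counts of called genes moved to 326 (ctrl) and 597 (ko) of 1228 between the Ly6Clo gates, and to 0 and 66 of 142 between the Ly6Chi gates, which gave 303 with no filter, 304 in 1 fit of all groups, 327 with unsummed libraries in that fit, 341 with barcode class added, and 67 to 218 with a replicate left out. They moved to 61 (ctrl) of 872 between the MHCIIhi populations, 767 and 872 of 1614 between the MHCIIlo populations, 1262 and 1499 of 2427 in Ly6Clo MHCIIhi against Ly6Chi MHCIIlo and 32 (ctrl) of 973 in Ly6Clo MHCIIlo against Ly6Chi MHCIIhi. For genotype, no filter gave 61 genes against 3 in Ly6Chi MHCIIlo, 24 against 1 in Ly6Clo MHCIIlo, 57 against 0 in Ly6Clo MHCIIhi and the most, 0.694% of 16279 genes tested, against 0 in Ly6Chi MHCIIhi, where 1 fit of all groups gave 33 and each library as its own sample 20 with barcode class and 63 without, and 112 against 4 for the interaction, which gave 0 without Ly6Chi MHCIIhi ctrl replicate 1. With Spearman's rho, 2 (Cd74), 3 (Ciita) and 1 (Ctss) of the 5 most like genes were shared. Depth limits Ciita, which held 0 to 12 counts per Ly6Clo MHCIIlo replicate.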
